A study of Mus musculus with 2 samples.

Results

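The anterior Hox genes were followed through the neural crest and hindbrain cells of mouse heads at E11.5, a stage when the arches have filled with crest. They were taken as the rows of the gene table named Hoxa2, Hoxa3, Hoxb1, Hoxb2, Hoxb3, Hoxb4, Hoxa5, Hoxd3 and Hoxaas2, which are 9 of 32285 genes. Of these, 8 belong to the 39 protein-coding Hox genes of the files, and Hoxaas2 is a noncoding RNA gene that lies just upstream of Hoxa2 on the opposite strand. All 9 names matched a single row each. In build GRCm38, Hoxa2 lies at chr6:52162417-52164831, Hoxaas2 at chr6:52165674-52169564, Hoxa3 at chr6:52169062-52213336 and Hoxa5 at chr6:52201754-52204587. Hoxb4 lies at chr11:96318267-96321638, Hoxb3 at chr11:96323326-96347930, Hoxb2 at chr11:96350525-96354012, Hoxb1 at chr11:96365752-96368256 and Hoxd3 at chr2:74711927-74748442.

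Hox genes encode homeodomain transcription factors that lie in clusters on several chromosomes, and their order along a cluster follows the order in which they are expressed from the hindbrain towards the tail. Genes at the same position in different clusters form a paralog group, which the number in the gene's name gives, so that Hoxa2 and Hoxb2 make up group 2. Hoxb1 marks rhombomere 4 of the hindbrain. The group 2 genes begin in the anterior hindbrain and the group 3 genes further back. Group 4 begins in the posterior hindbrain and group 5 near its border with the spinal cord. The neural crest that fills the first pharyngeal arch and the face in front of it lacks Hox expression, whereas the crest of the second arch expresses group 2 genes, and Hoxa2 is the gene whose loss turns second arch skeleton into first arch elements.

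The study removed the transcription factor genes Tfap2a and Tfap2b from neural crest cells and profiled the head by single-cell RNA-seq. The control library was made from embryos of the genotype Tfap2a wt/flox; Tfap2b wt/flox and the mutant library from Tfap2a flox/flox; Tfap2b flox/flox embryos, and all carried r26 mTmG/mTmG and Wnt1CRE, so the control cells had also lost 1 copy of each gene where the Cre was active. Heads were cut off below the second arch and the otic vesicle, cells of 2 embryos were pooled per genotype, and GFP-positive cells were sorted. Wnt1CRE acts in the dorsal neural tube as well as in its crest, so brain cells were sorted along with crest cells. Each genotype had 1 library and so no replicate: no test, SE or p could be given, and every interval below is an exact 95% interval for counting error only.

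The 2 libraries held 6148 and 6063 cell barcodes, of which 6 occurred in both, and 5625 and 5587 cells were kept, with medians of 13478 and 12234 unique molecular identifiers (UMIs) per cell. The libraries also differed in sex, with Xist in 98.8% of control cells and a Y-linked UMI in 82.0% of mutant cells, so sex, genotype and pool of embryos cannot be told apart. Levels are given in CPM, the UMIs of a gene per 1000000 UMIs of the cell group. Tfap2a and Tfap2b UMIs are read near the 3′ end of the transcript and do not tell an intact from a recombined floxed allele. In mesenchyme as a whole Tfap2a stood at 19.3 CPM in the control and 13.7 CPM in the mutant library, and Tfap2b at 56.2 and 47.3 CPM. In the second arch-like mesenchyme described next Tfap2a stood at 16.1 and 19.2 CPM and Tfap2b at 4.96 and 7.57 CPM.

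Cells were clustered without Hox genes and 4 groups were compared. Of 3715 control and 2731 mutant mesenchyme cells, 674 and 706 formed the cluster with the highest summed member level, which was led by 3110099E03Rik, Emx2 and Hoxa2 and is called second arch-like mesenchyme. That name rests on Hoxa2, Hoxb2, Hoxa3 and Hoxb3, all of them members, so the higher level there than in other mesenchyme is a choice and not a finding. Brain clusters with an Otx2 UMI in fewer than 20% of cells were taken as hindbrain and gave 130 and 172 Otx2-low progenitors and 299 and 376 Otx2-low neurons. The progenitors were all of a rhombic lip-like cluster led by Olig3, Msx3 and Atoh1. An isthmus and rhombomere 1-like progenitor cluster, with Otx2 in 50.3% of cells, fell among the Otx2-high progenitors. The neurons came from 2 clusters, a rhombic lip-like cluster led by Atoh1, Evx1os and C1ql3 and an unnamed cluster led by Tfap2a, Tfap2b and Lmx1b. Glia, which express Sox10, numbered 261 and 202 cells. All 6 mesenchyme markers were detected in the second arch-like cells of both libraries (summed level 1441 and 1485 CPM), whose neuron markers summed to 33.4 and 50.4 CPM and whose otic markers Oc90, Otol1 and Pax8 were at 0. Brain progenitor markers summed to 2861 and 2822 CPM in the Otx2-low progenitors and neuron markers to 9751 and 9774 CPM in the Otx2-low neurons.

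The windows upstream of the gene start are shown for Hoxa2, which was higher in the mutant second arch-like cells, and for Hoxa5 and Hoxb4, which were lower in the mutant hindbrain neurons. RefSeq windows were matched for 6 of the 9 members and none for Hoxb2, Hoxb3 and Hoxaas2. Each run gives the 250 bases before the start, read 5′ to 3′ on the strand of the gene in build GRCm38.p6: chr6:52164832-52165081 on the minus strand for Hoxa2, chr6:52204588-52204837 on the minus strand for Hoxa5 and chr11:96318017-96318266 on the plus strand for Hoxb4. No exon of GENCODE lies in these 3 windows. Capitals mark the letters GCCNNNGGC, a TFAP2 motif, and TGATNNAT, a joint HOX and PBX motif, on either strand.
Hoxa2: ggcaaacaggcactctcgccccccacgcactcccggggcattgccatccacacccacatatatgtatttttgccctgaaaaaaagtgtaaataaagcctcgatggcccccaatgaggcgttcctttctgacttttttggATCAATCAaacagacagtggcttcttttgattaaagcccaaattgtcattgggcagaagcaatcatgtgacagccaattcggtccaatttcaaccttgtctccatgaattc
Hoxa5: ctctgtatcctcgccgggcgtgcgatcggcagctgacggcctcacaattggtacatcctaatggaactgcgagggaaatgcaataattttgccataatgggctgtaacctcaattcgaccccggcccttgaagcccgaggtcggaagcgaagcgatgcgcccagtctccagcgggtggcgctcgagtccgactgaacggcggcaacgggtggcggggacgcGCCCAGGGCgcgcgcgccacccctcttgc
Hoxb4: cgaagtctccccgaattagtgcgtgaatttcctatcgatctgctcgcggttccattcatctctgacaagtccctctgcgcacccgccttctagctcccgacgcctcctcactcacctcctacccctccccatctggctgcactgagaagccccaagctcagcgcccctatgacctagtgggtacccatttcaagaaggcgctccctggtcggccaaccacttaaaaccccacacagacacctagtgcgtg
The Hoxa2 window held the HOX and PBX letters once, beginning 111 bases before the start, and no TFAP2 letters. The Hoxa5 window held the TFAP2 letters once, beginning 29 bases before the start, and the Hoxb4 window held neither. Among all 32851 promoter windows cut to the same 250 bases, 13.7% held the TFAP2 letters and 7.68% the HOX and PBX letters. Of the 6 matched members, 2 held the TFAP2 letters (Hoxb1 and Hoxa5) and 2 the HOX and PBX letters (Hoxa2 and Hoxb1). A match of letters is a description of the window and says nothing of binding.

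The members were highest in hindbrain neurons and progenitors, lower in second arch-like mesenchyme and lower again in the other mesenchyme clusters. UMIs were counted once per molecule near the 3′ end and so are not scaled by gene length, and the 9 members summed to 1278 CPM in control Otx2-low neurons, 400.3 CPM in Otx2-low progenitors and 136 CPM (129 to 144) in second arch-like mesenchyme. Roof plate and choroid plexus-like progenitors had 123 CPM (96.0 to 155), Otx2-high neurons 109 CPM (99.3 to 119), sensory neurons 92.2 CPM (70.9 to 118) and glia 89.5 CPM (81.5 to 98.1), and from second arch-like mesenchyme to glia the interval of each overlapped that of the next. The sensory neuron level rests on very few cells, as given below with the glia, so its place in this order is uncertain. In the rest of the mesenchyme the summed level was 31.9 CPM (28.6 to 35.4) in the mandibular-like cluster led by Hand2os1, Hand2 and 5033428I22Rik, 12.1 CPM (6.26 to 21.2) in the mural-like cluster led by Vtn, Tagln and Zic1, 6.87 CPM (5.70 to 8.21) in the maxillary-like cluster led by Lhx8, Lhx6 and Foxl2, and 3.44 CPM (2.65 to 4.41) in the frontonasal-like cluster led by Tfap2b, Pax7 and Gata2. Otx2-high progenitors without the choroid plexus-like cluster had 2.55 CPM (1.51 to 4.02) in the control and 2.70 CPM (1.84 to 3.84) in the mutant library. This was taken as the background, although all Otx2-high progenitors had been planned for it. The cluster left out held 71 of their 89 control and 65 of their 96 mutant member UMIs, so the background is lower through this choice. The forebrain, midbrain and first rhombomere are known to lack Hox expression, and 209 of the 573 control and 342 of the 956 mutant background cells came from an isthmus and rhombomere 1-like cluster, which by itself had 5.10 and 3.07 CPM. The frontonasal-like cluster overlapped this reduced background in the control library but not in the mutant, where the cluster had 7.34 CPM (5.80 to 9.18). No comparison with all Otx2-high progenitors is given.

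Hoxa2 alone had a different order from the sum. It stood at 103 CPM (91.8 to 115) in control Otx2-low neurons, 75.0 CPM (69.5 to 80.8) in second arch-like mesenchyme and 56.1 CPM (44.8 to 69.5) in Otx2-low progenitors, whose interval touched that of the second arch-like cells. In the mutant library the intervals of the first 2 overlapped, with 87.5 CPM (81.6 to 93.7) in second arch-like mesenchyme and 79.9 CPM (71.0 to 89.6) in neurons, followed by progenitors, where 104 UMIs gave an interval of 40.9 to 60.6 CPM. Glia had 15.1 and 9.39 CPM, and the mandibular-like cluster 10.6 and 15.8 CPM in the control and mutant libraries.

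**Figure D1:**
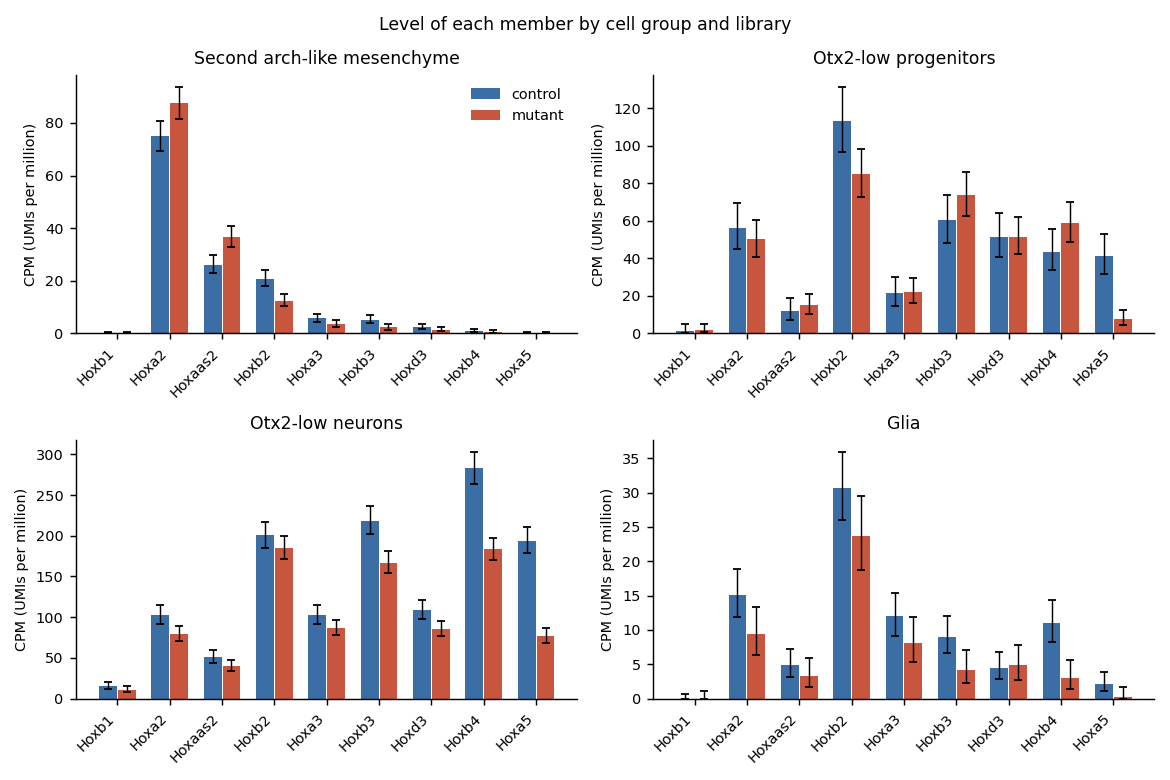
Level of each member, in CPM, in the 4 cell groups (bars, control blue and mutant red; error bars, exact 95% Poisson interval for counting error; 1 library per genotype; each panel has its own scale from 0). Hoxa2 leads in second arch-like mesenchyme, Hoxb2 in progenitors and glia, and Hoxb4 in control neurons.

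The make-up of the member UMIs separated second arch-like mesenchyme from the hindbrain cells in both libraries. Hoxa2 made up 55.0% (52.2 to 57.8) of member UMIs in control and 60.6% (57.9 to 63.2) in mutant second arch-like cells. In Otx2-low progenitors it made up 14.02% (11.3 to 17.1) and 13.7% (11.3 to 16.4), and in Otx2-low neurons 8.06% and 8.71%. In second arch-like cells Hoxaas2 held a further 19.2% and 25.3% and Hoxb2 15.3% and 8.63%, whereas Hoxb4 held 0.713% and 0.443% and Hoxa5 none. Hoxb4 held 22.1% and 20.01% in neurons and Hoxa5 15.2% and 8.42%.

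The balance within paralog group 2 was opposite in mesenchyme and hindbrain. Second arch-like cells had 0.278 Hoxb2 UMIs per Hoxa2 UMI (0.236 to 0.326) in the control and 0.143 (0.116 to 0.173) in the mutant library. Otx2-low progenitors had 2.01 (1.54 to 2.65) and 1.69 (1.32 to 2.18), Otx2-low neurons 1.95 (1.69 to 2.24) and 2.31 (2.02 to 2.66), and glia 2.03 (1.53 to 2.70) and 2.52 (1.64 to 3.95). Within each library Hoxa2 was therefore the more abundant group 2 UMI in second arch-like mesenchyme and Hoxb2 in the hindbrain groups and glia, with intervals that did not meet. The mandibular-like cluster lay between them, at 0.819 (0.618 to 1.08) in the control and 0.452 (0.313 to 0.644) in the mutant library.

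Counted as the share of the code that would have to be reassigned to turn one make-up into another, control second arch-like cells differed from control progenitors by 57.2% and from control neurons by 62.1%. In the mutant library these values were 68.1% and 72.8%. Control and mutant codes of the same cell group lay much closer, by 11.8% in second arch-like cells, 13.6% in progenitors, 8.89% in neurons and 12.0% in glia. Progenitors and neurons of the same library differed by 22.8% in the control and 14.7% in the mutant.

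**Figure D2:**
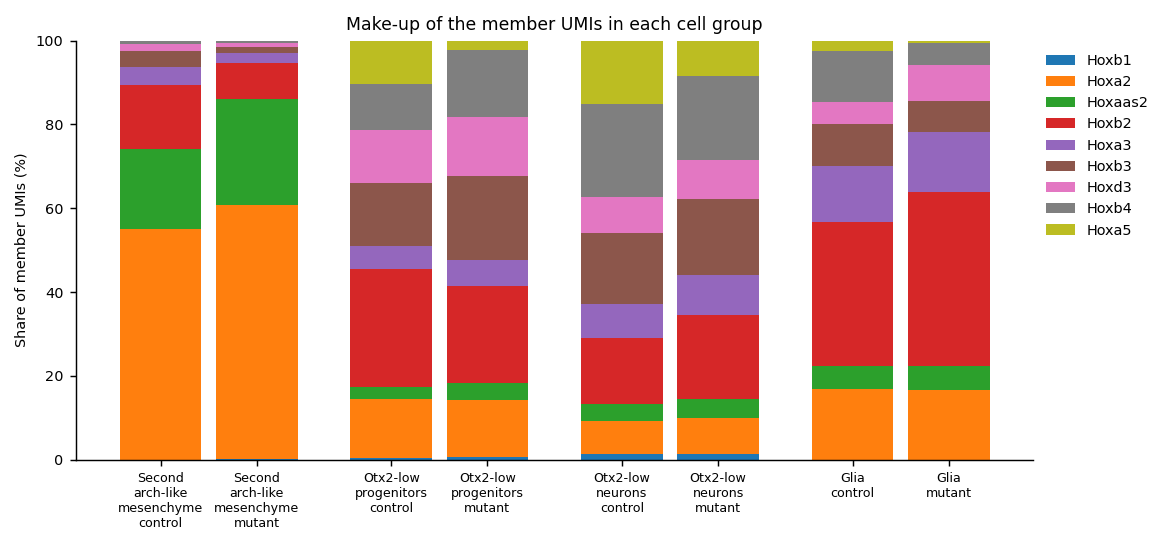
Share of all member UMIs (%) taken by each member in each cell group and library (stacked bars, 1 library per genotype). Hoxa2 with Hoxaas2 fills most of the second arch-like bars, whereas Hoxb2, Hoxb3, Hoxb4 and Hoxa5 take most of the neuron bars.

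Whole mesenchyme was compared first. Member UMIs summed to 31.7 CPM in control and 42.5 CPM in mutant cells, and the log2 ratio of mutant over control was 0.43 (0.33 to 0.52). Hoxa2 stood at 15.9 CPM and 24.6 CPM, 1.55-fold higher in the mutant library. Hoxaas2 stood at 5.49 and 10.4 CPM (log2 ratio 0.92, 0.71 to 1.13). Hoxb2, the paralog of Hoxa2 that is also expressed in second arch crest, went the other way, at 5.67 and 4.38 CPM (log2 ratio -0.37, -0.64 to -0.11), as did Hoxb3 at 1.89 and 1.03 CPM (log2 ratio -0.88, -1.42 to -0.35). The shares of cells with a UMI overlapped for Hoxb2, at 5.60% (4.88 to 6.39) and 5.02% (4.23 to 5.90). They also overlapped for Hoxb3, at 1.53% (1.16 to 1.98) and 1.14% (0.773 to 1.61). For Hoxa2 they lay apart, at 9.74% (8.81 to 10.7) and 14.5% (13.2 to 15.9). Of the 5 members with at least 100 UMIs in mesenchyme, 2 were 1.5-fold or more higher in the mutant library (Hoxa2 and Hoxaas2), where 2.65% of 12433 genes were, and 1 was that much lower (Hoxb3), where 1.01% were. Hoxa3 had 91 and 50 UMIs, Hoxd3 34 and 20, Hoxb4 21 and 15, Hoxa5 9 and 2 and Hoxb1 2 and 2. Of the other Hox genes Hoxd4 reached 30 UMIs, with 38 and 10 (log2 ratio -1.47, -2.64 to -0.44).

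The make-up of the mesenchyme also differed. Second arch-like cells were 18.1% (16.9 to 19.4) of control and 25.9% (24.2 to 27.5) of mutant mesenchyme cells, and they held 69.8% and 76.3% of its member UMIs. With the clusters held at their control shares, the log2 ratio of the summed members in mesenchyme was 0.14.

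Within second arch-like mesenchyme Hoxa2 was somewhat higher and its group 2 and group 3 companions lower in the mutant library, while the interval of the sum took in 0. The summed level was 136 CPM in the control and 144 CPM in the mutant library, with a log2 ratio of 0.08 (-0.03 to 0.20), which became 0.21 with cells of at most 5% mitochondrial UMIs and 0.36 at doubled clustering resolutions, both with intervals above 0. Hoxa2 stood at 75.0 CPM (695 UMIs) and 87.5 CPM (821 UMIs), with a ratio of 0.22 on the log2 scale (0.08 to 0.37), and the counting intervals of the libraries did not overlap. The shares of cells with a Hoxa2 UMI did overlap, at 38.3% (34.6 to 42.1) and 41.8% (38.1 to 45.5). Hoxaas2, which is transcribed away from Hoxa2, stood at 26.1 and 36.6 CPM, a log2 ratio of 0.49 (0.24 to 0.73). The proportion of the 2 transcripts had overlapping intervals, with 0.348 Hoxaas2 UMIs per Hoxa2 UMI (0.300 to 0.404) in the control and 0.418 (0.367 to 0.474) in the mutant library.

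Hoxb2 went the opposite way in these cells, from 20.8 CPM (193 UMIs) in the control to 12.5 CPM (117 UMIs) in the mutant library. This is 1.67-fold lower, with a log2 ratio of -0.74 (-1.08 to -0.40). The group 3 genes, which act in more posterior arches and rhombomeres, had lower values too. Hoxb3 had 48 and 21 UMIs (5.18 and 2.24 CPM; log2 ratio -1.21, -2.02 to -0.44). Hoxa3 had 53 and 33 UMIs (5.72 and 3.52 CPM; log2 ratio -0.70, -1.37 to -0.05), and its ratio was 0.02 when only cells with at most 5% mitochondrial UMIs were counted. Hoxd3 had 23 and 13 UMIs, with a log2 ratio of -0.84 whose interval, -1.94 to 0.20, took in 0. Hoxb4 was near the limit of detection with 9 and 6 UMIs, Hoxb1 had 0 and 1, and Hoxa5 had no UMI in either library, where 3 UMIs would be 0.324 and 0.320 CPM. Of the 3 members with at least 100 UMIs here (Hoxa2, Hoxb2 and Hoxaas2), 0 were 1.5-fold or more higher in the mutant library, against 2.84% of 9804 genes, and 1 was that much lower (Hoxb2), against 0.959%. With at most 5% mitochondrial UMIs the log2 ratio of Hoxb2 was -0.48, which is under 1.5-fold. After thinning to 5000 UMIs those of Hoxb3 and Hoxa3 were -0.55 and -0.31, under it as well.

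Grouped by chromosome, the coding genes of the Hoxa cluster summed to 81.2 and 91.4 CPM in second arch-like cells (log2 ratio 0.17, 0.03 to 0.31) and those of the Hoxb cluster to 27.3 and 15.6 CPM (log2 ratio -0.81, -1.11 to -0.51). The noncoding genes of the clusters had 27 and 46 UMIs for Hotairm1 (log2 ratio 0.75, 0.04 to 1.49) and 145 and 157 for Hoxb3os, which runs antisense to Hoxb2 and Hoxb3 and had a log2 ratio of 0.10 (-0.24 to 0.43). The strand setting of the counting is not given in the sources used here, and Hoxb2 and Hoxb3 overlap Hoxb3os, while Hoxa3 overlaps Hoxaas2 and also spans Hoxa4, Hoxa5 and Hoxa6. Hoxd3 overlaps Hoxd4 on the same strand and Hoxd3os1 and Haglr on the other, and Hoxa2 overlaps Gm28308 on the same strand, so the values of all these genes are uncertain to that extent. Hoxb1 and Hoxb4 overlap no other gene of the annotation. Of the 31 other Hox genes none reached 30 UMIs in second arch-like mesenchyme and 21 had no UMI at all.

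In the mandibular-like cluster Hoxa2 and the Hoxb genes again had ratios of opposite sign, at lower levels. Hoxa2 stood at 10.6 and 15.8 CPM (log2 ratio 0.58, 0.19 to 0.98) and Hoxb2 at 8.66 and 7.15 CPM (log2 ratio -0.28, -0.81 to 0.24), whose interval took in 0. Hoxb3 had 46 and 7 UMIs there (log2 ratio -1.98, -3.37 to -0.82), and the 9 members summed to 31.9 and 33.4 CPM. The interval counts UMIs of the same cell as separate draws. In all mesenchyme outside the second arch-like cells, Hoxb3 had 60 UMIs in 29 of 3041 control cells (0.954%). It had 22 UMIs in 22 of 2025 mutant cells (1.09%), so the share of cells was not lower. In the frontonasal-like cluster Hoxa2 rested on 16 and 34 UMIs (0.875 and 3.24 CPM). It stood at 0.424 and 0.873 CPM in the reduced background cells and at 0.784 and 1.43 CPM in all Otx2-high progenitors.

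**Figure D3:**
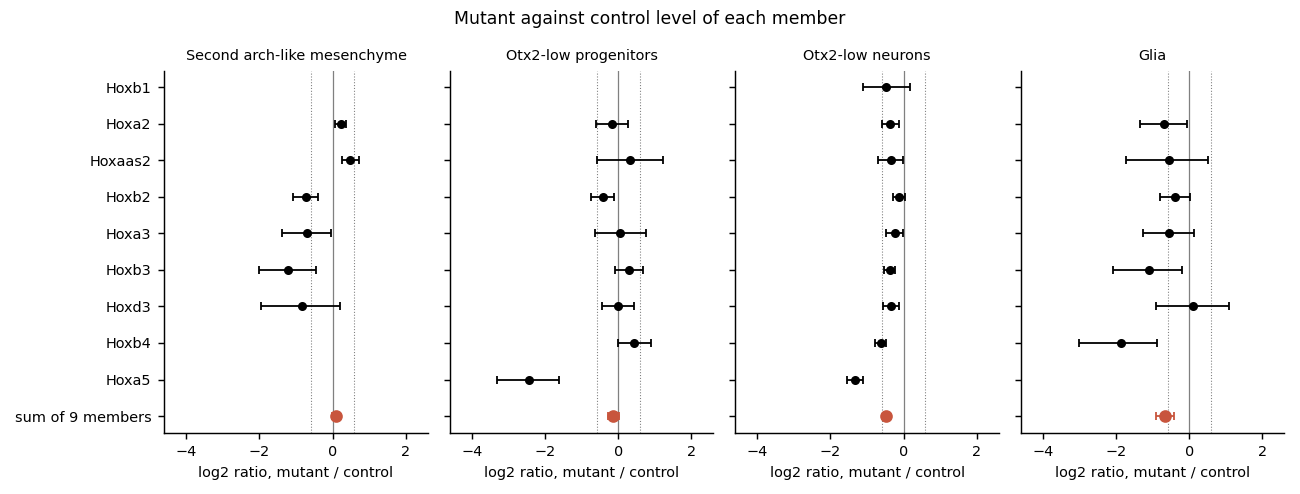
log2 ratio of the mutant over the control level of each member (points) in the 4 cell groups, with exact 95% intervals for counting error. The sum of 9 members is the larger red point, dotted lines mark 1.5-fold, and members with fewer than 30 UMIs in a group are left out. Hoxa2 and Hoxb2 lie on opposite sides of 0 in second arch-like mesenchyme, and Hoxa5 lies farthest below 0 in progenitors and neurons.

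In Otx2-low progenitors the anterior members differed little, and Hoxa5 stood apart in its UMI sum. The summed level was 400.3 CPM in the control and 365 CPM in the mutant library, with a log2 ratio of -0.13 (-0.29 to 0.02). Hoxb2, the most abundant member here, stood at 113 and 84.6 CPM (log2 ratio -0.42, -0.73 to -0.10). Hoxa2 had 84 and 104 UMIs (log2 ratio -0.17, -0.60 to 0.27). Intervals that took in 0 were also found for Hoxb3 at 60.1 and 73.6 CPM, Hoxd3 at 51.5 and 51.4 CPM, Hoxb4 at 43.4 and 58.7 CPM, Hoxa3 at 21.4 and 22.1 CPM and Hoxaas2 at 12.0 and 14.9 CPM. Hoxb1 had 2 and 4 UMIs. Hoxa5 had 62 UMIs in the control and 16 in the mutant library, which is 41.4 and 7.69 CPM or 5.39-fold lower (log2 ratio -2.43, -3.32 to -1.62), and it was under the minimum of 100 UMIs. Of the 5 members above that minimum, 0 were 1.5-fold or more higher, against 1.32% of 5228 genes, and 0 lower, against 0.861%.

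Among the other Hox genes of the progenitors, 2 had at least 100 UMIs and neither passed the fold, against 1.32% of all genes higher and 0.861% lower. Hoxd4 had a log2 ratio of -0.31 (-0.70 to 0.08), Hoxc4 0.41 (-0.11 to 0.96), Hoxa4 -0.57 (-1.21 to 0.06) and Hoxc5 -0.35 (-1.08 to 0.39). Hoxb5, the group 5 gene of the Hoxb cluster, had 19 UMIs in the control and none in the mutant library, at least 8.80-fold lower when the mutant level is set at 3 UMIs. Hoxb6 had 10 and 0 UMIs and was at least 4.63-fold lower; both had fewer than 30 UMIs and are named here after their values were seen. The noncoding Hoxb3os had a log2 ratio of -0.46 (-0.77 to -0.14), Hotairm1 -0.66 (-1.34 to 0.01) and Haglr -0.76 (-1.75 to 0.20).

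In Otx2-low neurons the values of all 9 members were lower in the mutant library, and those of Hoxb4 and Hoxa5 by most. The summed level was 1278 CPM in control and 917 CPM in mutant cells, and the log2 ratio was -0.48 (-0.55 to -0.41), or -0.76 when Otx2-low was set cell by cell. Hoxb1, the rhombomere 4 gene, had 46 and 41 UMIs (log2 ratio -0.47, -1.11 to 0.17). Hoxa2 stood at 103 and 79.9 CPM (log2 ratio -0.37, -0.60 to -0.13) and Hoxb2 at 201 and 185 CPM (log2 ratio -0.12, -0.28 to 0.04). Of the group 3 genes, Hoxa3 stood at 103 and 87.0 CPM (log2 ratio -0.24, -0.47 to -0.01), Hoxb3 at 219 and 167 CPM (log2 ratio -0.39, -0.55 to -0.23) and Hoxd3 at 109 and 85.9 CPM (log2 ratio -0.35, -0.57 to -0.12). Hoxaas2 stood at 51.5 and 40.3 CPM.

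Hoxb4 and Hoxa5 are the most posterior members by paralog group. Hoxb4 had 840 and 673 UMIs, 283 and 183 CPM, and was 1.54-fold lower in the mutant library. Hoxa5 had 576 and 283 UMIs, 194 and 77.1 CPM, and was 2.51-fold lower (log2 ratio -1.33, -1.54 to -1.12). Of the 8 members with at least 100 UMIs these 2 were 1.5-fold or more lower, against 0.823% of 7290 genes, and 0 were higher, against 1.73%. The median log2 ratio of the 8 members was -0.36, beside 0.01 for all genes tested.

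The lower values of Hoxb4 and Hoxa5 were found in both neuron clusters. The rhombic lip-like cluster made up 71.2% (65.7 to 76.3) of the neurons in the control and 70.5% (65.6 to 75.0) in the mutant library. Hoxa5 stood at 237 and 99.6 CPM in the rhombic lip-like cluster and at 87.3 and 15.3 CPM in the unnamed one. Hoxb4 stood at 310 and 198 CPM in the first and 215 and 144 CPM in the other. Hoxa2 had a log2 ratio of -0.52 (-0.78 to -0.26) in the rhombic lip-like cluster and 0.28 (-0.31 to 0.89) in the unnamed cluster, where the interval took in 0.

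Among the other Hox genes, 7 had at least 100 UMIs in Otx2-low neurons, and 6 of these were 1.5-fold or more lower in the mutant library and 0 higher, against 0.823% lower and 1.73% higher of all genes tested. Hoxb6 stood at 70.7 and 11.2 CPM (log2 ratio -2.66, -3.18 to -2.17), Hoxb8 at 48.8 and 12.5 CPM (log2 ratio -1.96, -2.47 to -1.47) and Hoxc5 at 40.1 and 16.6 CPM (log2 ratio -1.27, -1.74 to -0.81). Log2 ratios were -1.21 for Hoxb5, -0.80 for Hoxc4, -0.59 for Hoxa4 and -0.29 for Hoxd4. With fewer UMIs, Hoxb7 had 30 and 11. The noncoding Hotairm1, Hoxb3os, Haglr and Hoxaas3 had log2 ratios of -0.14, -0.11, -0.16 and -0.72, all with intervals that took in 0.

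Summed by paralog group, the log2 ratio in neurons was -0.20 in group 2, -0.34 in group 3 and -0.58 in group 4. It was -1.28 in group 5, -2.69 in group 6, -1.81 in group 7 and -1.93 in group 8. The intervals of groups 5 to 8 all lay below those of groups 2 to 4, the nearest pair being group 7 (-2.89 to -0.82) and group 4 (-0.68 to -0.48). In progenitors group 5 stood at 75.5 and 24.5 CPM (log2 ratio -1.62, -2.13 to -1.13) and groups 2 to 4 between -0.33 and 0.15. In second arch-like mesenchyme group 2 had a log2 ratio of 0.06 (-0.07 to 0.20), group 3 -0.91 (-1.36 to -0.47) and group 4 -1.21 (-2.23 to -0.26). Cells that express the higher groups lie nearest the caudal cut of the head, and with 1 pool of embryos per genotype the position of that cut and the genotype cannot be told apart.

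**Figure D4:**
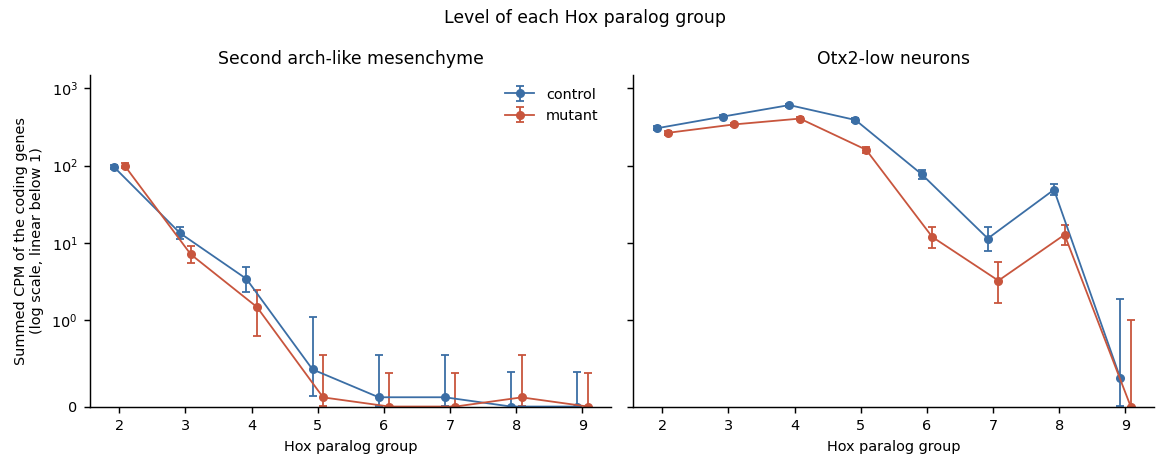
Summed level of the coding Hox genes of paralog groups 2 to 9 (x axis) in CPM (y axis, logarithmic and linear below 1) in second arch-like mesenchyme and Otx2-low neurons, with exact 95% Poisson intervals (control blue, mutant red, 1 library each). The libraries lie close together in group 2 in both panels and apart in groups 5 to 8 in the neurons.

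Glia had lower member levels in the mutant library, but the clusters differed in other ways. The sum stood at 89.5 and 57.0 CPM (log2 ratio -0.65, -0.91 to -0.40), Hoxa2 at 15.1 and 9.39 CPM (log2 ratio -0.69, -1.34 to -0.07) and Hoxb2 at 30.7 and 23.6 CPM (log2 ratio -0.38, -0.79 to 0.02). Hoxb4 had 56 and 10 UMIs, 3.64-fold lower, Hoxb3 46 and 14, Hoxa3 61 and 27, Hoxaas2 25 and 11, Hoxd3 23 and 16, Hoxa5 11 and 1 and Hoxb1 none. Of the other Hox genes Hoxb5 had 42 UMIs in the control and none in the mutant library, at least 9.09-fold lower with the mutant level set at 3 UMIs, and Hoxc4 and Hoxd4 had log2 ratios of -1.17 and -1.81. Of the 2 members with at least 100 UMIs, 0 were 1.5-fold or more higher, against 6.28% of 8072 genes, and 1 was lower (Hoxa2), against 4.82%. In the same cells all 5 neuron markers were detected and summed to 2050 CPM in the control and 285 CPM in the mutant library, and the 5 glial markers to 589 and 941 CPM. The part of this difference in the member values was not tested. The sensory neurons, 40 and 57 cells, held 63 and 6 member UMIs, in 3 and 5 cells, so that the control level rests on 3 cells.

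The shares of cells with a member UMI had overlapping intervals in second arch-like mesenchyme and were lower in mutant neurons. Each cell was thinned to 5000 UMIs so that depth was equal. At least 1 member UMI was then found in 35.8% (32.2 to 39.6) of control and 35.1% (31.5 to 38.8) of mutant second arch-like cells, or 47.9% and 50.8% without thinning. In Otx2-low neurons the shares were 72.5% (66.9 to 77.6) and 59.6% (54.3 to 64.7), and in Otx2-low progenitors 52.0% (42.9 to 60.9) and 47.6% (39.9 to 55.5). In mesenchyme as a whole they were 9.14% (8.23 to 10.1) and 12.4% (11.2 to 13.7), or 13.9% and 19.7% without thinning. The background in Otx2-high progenitors without the choroid plexus-like cluster was 1.07% and 1.19%, or 2.44% and 2.51% without thinning. Median depths there were 11653 and 11245 UMIs against 12992 and 12100 in second arch-like cells.

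After thinning, Hoxa2 UMIs occurred in 24.0% (20.8 to 27.4) of control and 25.7% (22.4 to 29.1) of mutant second arch-like cells, with overlapping intervals. Hoxaas2 was found in 10.5% and 13.6% of these cells, and Hoxb2 in 8.70% and 4.93%. In neurons Hoxb4 was found in 45.6% and 28.7% of cells, Hoxa5 in 27.2% and 11.1%, and Hoxb2 in 44.3% and 39.3%. Cells whose most posterior Hox UMI belonged to group 5 or higher were 31.0% (25.7 to 36.7) of control and 17.5% (13.8 to 21.9) of mutant neurons. They were 15.7% (9.89 to 23.3) and 10.7% (6.47 to 16.4) of progenitors, with overlapping intervals. Among second arch-like cells they were 0 of 667 and 0 of 690, which by the exact upper bound allows up to 0.552% and 0.533% of cells with such a UMI at the thinned depth. Without thinning these cells held 4 and 1 UMIs of group 5, 1 and 0 of group 6, 1 and 0 of group 7 and 0 and 1 of group 8 in the control and mutant libraries.

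More members were found per cell in neurons than in mesenchyme. After thinning, up to 9 members were found in a control neuron and up to 4 in a control second arch-like cell, and 27.9% of control and 39.3% of mutant neurons had no Hox UMI of any coding gene. Among control second arch-like cells 24.6% had 1 member, 9.30% had 2 and 1.80% had 3, and among mutant cells 23.8%, 9.71% and 1.59%. Hoxaas2 was found in 20.6% (14.6 to 27.7) of the 160 control cells with Hoxa2 and 7.30% (5.19 to 9.92) of the 507 without it. In the mutant library the shares were 31.1% (24.3 to 38.5) of 177 and 7.60% (5.46 to 10.2) of 513. Hoxb2 was found in 12.5% and 7.50% of control and 9.60% and 3.31% of mutant cells with and without Hoxa2.

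The TALE homeodomain proteins of the Meis, Pbx and Pknox families bind DNA together with Hox proteins. All 9 genes listed had at least 100 UMIs in second arch-like mesenchyme. Of these, 0 were 1.5-fold or more higher in the mutant library, against 2.84% of all genes, and 0 lower, against 0.959%. Their median log2 ratio was 0.01, beside 0.03 for all genes tested. Meis1 stood at 160 and 189 CPM (log2 ratio 0.24, 0.14 to 0.34), Meis3 at 12.4 and 9.17 CPM (log2 ratio -0.44) and Pknox1 at 23.0 and 17.6 CPM (log2 ratio -0.39). In Otx2-low progenitors 6 were tested and 0 passed the fold, where 1.32% of all genes were higher and 0.861% lower. In Otx2-low neurons 8 were tested and 0 passed, where 1.73% were higher and 0.823% lower. Counts of 0 among so few genes lie close to these shares. Log2 ratios were -0.44 for Meis2, 0.16 for Meis3 and 0.23 for Pbx2 in progenitors, and -0.51 for Pknox1 and 0.33 for Pbx4 in neurons. In glia 7 were tested and 1 was lower, against 4.82% of all genes, Meis3 at 50.9 and 25.1 CPM, with Meis1 at 0.36 and Pbx2 at 0.31.

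Meis1 and Meis2 were found more often in second arch-like cells with Hoxa2 than in those without. After thinning Meis1 was found in 61.2% (53.2 to 68.8) of control cells with a Hoxa2 UMI and 36.1% (31.9 to 40.4) of those without, and in 70.1% (62.7 to 76.7) and 38.4% (34.2 to 42.8) of the mutant cells. Meis2 was found in 92.5% and 74.0% of control and 90.4% and 74.7% of mutant cells.

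Of 16 genes known to act on Hox expression or on the retinoic acid that drives it, 9 had at least 100 UMIs in second arch-like mesenchyme, with 1 higher (against 2.84% of all genes), 1 lower (against 0.959%) and a median log2 ratio of -0.10. Cyp26a1, an enzyme that breaks down retinoic acid, stood at 24.9 and 64.0 CPM (log2 ratio 1.36, 1.14 to 1.59), and was also among the 5 leading genes of the cluster. Gbx2, a homeobox gene of the anterior hindbrain and the arches, stood at 26.1 and 6.61 CPM (log2 ratio -1.98, -2.41 to -1.57). Rarg, a retinoic acid receptor gene, stood at 68.2 and 46.7 CPM (log2 ratio -0.55, -0.73 to -0.37). In progenitors 3 were tested and 1 was higher, against 1.32% of all genes, Cyp26b1, another enzyme of that family, at 26.1 and 54.8 CPM (log2 ratio 1.07, 0.54 to 1.64), with Rara at 0.23 and Kat6a at 0.18. In neurons 3 were tested and 0 passed the fold, against 1.73% of all genes higher and 0.823% lower, with Kat6a at -0.28 and Rara at -0.02. In glia 3 were tested and 0 passed, against 6.28% higher and 4.82% lower, with Egr2 at 0.27.

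Of 13 arch genes linked to Hoxa2, 9 were tested in second arch-like mesenchyme, with 0 higher (against 2.84% of all genes), 1 lower (against 0.959%) and a median log2 ratio of -0.22. Pitx1, a homeobox gene of the first arch, had 175 UMIs in the control and 10 in the mutant library, 18.9 and 1.07 CPM (log2 ratio -4.15, -5.23 to -3.23). Barx1 stood at 210 and 145 CPM (log2 ratio -0.53, -0.63 to -0.43) and Alx4 at 10.4 and 6.93 CPM (log2 ratio -0.58, -1.06 to -0.11). In progenitors, neurons and glia 3, 3 and 5 were tested. None passed the fold in progenitors, where 1.32% of all genes were higher and 0.861% lower. None passed it in neurons either, where 1.73% were higher and 0.823% lower. In glia 2 were higher, against 6.28% of all genes, and 1 lower, against 4.82%. Log2 ratios were 0.56 for Sox9 in progenitors, -0.25 for Sox9 in neurons, and 1.20 for Sox9, 0.73 for Zfp503 and -1.12 for Barx1 in glia.

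Few second arch-like cells with Hoxa2 held Pitx1 in either library. After thinning, Pitx1 UMIs occurred in 0.625% (0.0158 to 3.43) of the 160 control cells with a Hoxa2 UMI and 5.33% (3.54 to 7.65) of the 507 without, and in 0.565% and 0.585% of the mutant cells. Gbx2 was found in 4.38% (1.78 to 8.81) and 10.3% (7.76 to 13.2) of control and 3.95% (1.60 to 7.98) and 1.75% (0.805 to 3.30) of mutant cells with and without Hoxa2. Cyp26a1 was found in 8.75% (4.87 to 14.2) and 7.30% (5.19 to 9.92) of control and 11.9% (7.50 to 17.6) and 20.9% (17.4 to 24.6) of mutant cells with and without Hoxa2. For these 3 genes the libraries had intervals apart in the cells without a Hoxa2 UMI and overlapping in the cells with it. The difference between the subsets was not tested, and a cell without a Hoxa2 UMI at this depth may still express the gene.

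**Figure D5:**
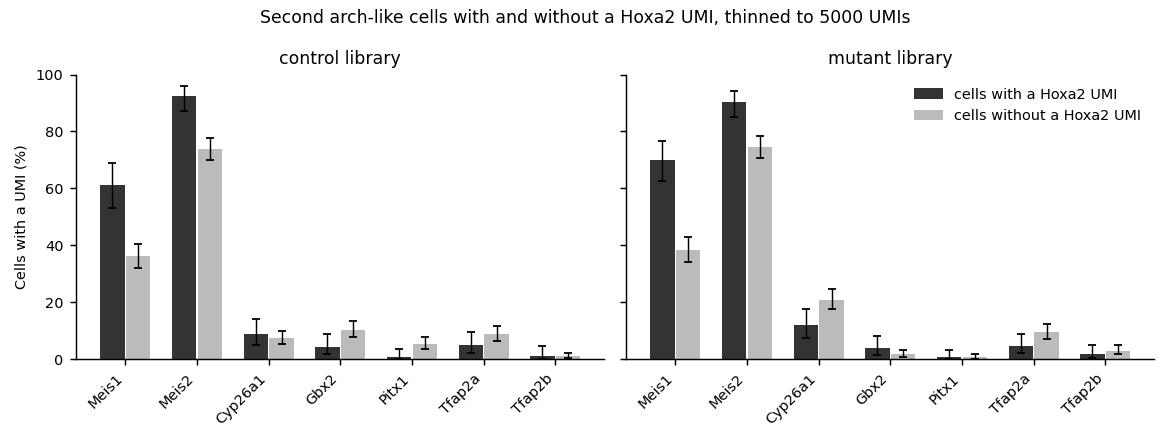
Share of second arch-like cells (%) with a UMI of each gene, split into cells with (dark) and without (pale) a Hoxa2 UMI, after thinning each cell to 5000 UMIs (control left, mutant right, 1 library each; error bars, exact 95% Clopper-Pearson interval). Meis1 is found more often in cells with Hoxa2 in both libraries, and Pitx1 and Gbx2 are less frequent in mutant than in control cells without Hoxa2.

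Across 36 cluster by library groups of at least 50 cells, and with Hox genes left out, the levels most like Hoxa2 among 12667 genes were those of Gm16141 (Pearson r 0.90), Meis1 (0.82), Gm15050 (0.79), Rara (0.77) and Pknox1 (0.72), on a log2 scale of CPM plus 10. Gm15050 lies within Hoxa3 on the opposite strand and so belongs to the Hoxa cluster. For Hoxb2 they were Gm15050 (0.88), Gm16141 (0.83), Skap2 (0.83), Dach2 (0.82) and Olig3 (0.80). Among the members themselves Hoxa2 was most like Hoxaas2 (0.96) and Hoxb2 most like Hoxa3 (0.95). The groups come in pairs from the same clusters and share 2 libraries, so these values describe the groups and are no test.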

How the data were processed

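Single-cell RNA-seq of GFP-positive head cells was deposited as 1 matrix per genotype. The authors counted UMIs with Cell Ranger 6.0.0 against mm10, and the deposited values are whole-number counts of UMIs per gene and cell, not normalized. Whether strand was used in counting is not given in the sources used here. Per the submitters' processing notes Seurat 4.3.0 was used in the study.

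From these counts, barcodes were kept, as in the study, where 200 to 7500 genes were detected and at most 10% of UMIs were mitochondrial. Cells were integrated and clustered with Seurat 5.3.0 in R 4.3.3, with 2000 variable genes, 30 dimensions and resolution 0.05 for classes and 20 dimensions and resolution 0.2 within classes. Hox genes, Hox cluster noncoding genes, Tfap2a, Tfap2b, Xist, Tsix and Y-linked genes were kept out. Clusters took the name of the marker list with the highest mean log2 fold. The name was kept only where a listed marker was among their 5 leading genes, a limit settled after the clusters were seen. In clusters of mixed markers or low depth, 137 control and 200 mutant cells were left out. Scrublet (scanpy 1.11.5, Python 3.11.15) called 1.65% and 3.06% of cells doublets, which were kept.

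UMIs were summed per cell group and library and divided by all UMIs of that group (CPM). Exact 95% Poisson, conditional binomial and Clopper-Pearson intervals were given for levels, ratios and shares. Only the ratio interval was run on simulated data, with Poisson sums that share its assumption of separate draws. That run cannot show how the intervals hold where UMIs gather in few cells. Genes with at least 100 UMIs over both libraries and 1.5-fold or more apart were counted. Named were the 9 members, other Hox genes with at least 30 UMIs, and from each other list the 3 genes with the largest absolute log2 ratio among those with at least 100 UMIs; a few genes this takes in are not reported here. Likeness used genes with at least 200 UMIs. The members and lists were chosen with earlier results of these data known. Alternatives were other scalings (edgeR 4.0.16 TMM and median of ratios), equal weight per cell, thinning, other filters, resolutions and cell groups.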

Additional observations from a re-analysis of the deposited data

Results flagged for a closer look

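The mutant over control log2 ratio of Hoxa2 was 0.22 in second arch-like mesenchyme and -0.37 in Otx2-low neurons, which is 0.59 apart, with intervals on opposite sides of 0. For Hoxaas2 the ratios of 0.49 and -0.35 in these cell groups lay 0.84 apart. Within the neurons the ratios were -0.52 for Hoxa2 and -0.47 for Hoxaas2 in the rhombic lip-like cluster. In the unnamed Otx2-low neuron cluster Hoxa2 had 42 and 59 UMIs (0.28, -0.31 to 0.89) and Hoxaas2 19 and 25 (0.19, -0.73 to 1.13). Both intervals in the unnamed cluster took in 0, so they give no direction. Hoxa2 also stood at 0.22 in second arch-like mesenchyme and -0.69 in glia, 0.91 apart, where the summed neuron markers of the glia differed between the libraries (2050 and 285 CPM). These results are listed because the only library pair moved one way in 1 cell group and the other way in the other. With 1 library per genotype the differences were not tested.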

How the results depend on the processing

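No paired analysis was possible because each genotype had 1 library and the labels give no replicate numbers, and for the same reason no replicate could be left out. Of the summed levels, Hoxa2 shares, cell shares and gene counts set against an alternative, 89 stayed within the counting interval or, for gene counts, within 1.5 times, and 19 did not. The log2 ratio of the member sum in mesenchyme was 0.30 without Hoxaas2 and 0.14 with cluster shares held at control values, against 0.43. In second arch-like mesenchyme it was 0.21 with cells of at most 5% mitochondrial UMIs and 0.36 at doubled resolutions, against 0.08. In Otx2-low neurons it was -0.56 with equal weight per cell and -0.76 with Otx2-low set cell by cell, against -0.48. Thinning to 5000 UMIs gave a Hoxa2 share of 47.6% of control mesenchyme member UMIs against 50.1%, and 9.14% and 12.4% of mesenchyme cells with a member UMI against 13.9% and 19.7%. With genes of at least 30 UMIs counted, the numbers higher and lower in the mutant library were 691 and 349 in mesenchyme, 621 and 259 in second arch-like mesenchyme, 412 and 330 in Otx2-low progenitors, 431 and 310 in Otx2-low neurons and 1136 and 754 in glia; more genes were tested there.

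Of 321 log2 ratios of single members under an alternative, 307 stayed within the main counting interval and 14 did not, and 11 changed sign. Of the 112 whose main value was 1.5-fold or more, 104 kept that size and direction and 8 did not, all 8 in second arch-like mesenchyme (Hoxa3, Hoxb2, Hoxb3 and Hoxb4). Of these, 2 changed sign: Hoxa3 was 0.019 with at most 5% mitochondrial UMIs against -0.70, and Hoxb4 was 0.20 at doubled resolutions against -0.60, on few UMIs. The other 9 sign changes were of smaller ratios: Hoxa3 in mesenchyme was 0.13 against -0.41 and Hoxb4 0.23 against -0.03 with at most 5% mitochondrial UMIs, and Hoxb4 was 0.29 with the mixed and low-depth clusters kept. After thinning Hoxa2, Hoxa3 and Hoxb3 in Otx2-low progenitors were 0.04, -0.51 and -0.25 against -0.17, 0.05 and 0.29, and Hoxd3 there stayed within 0.01 of 0 in its 3. Hoxa2 ranged from 0.12 to 0.52 and Hoxb2 from -0.90 to -0.48 in second arch-like mesenchyme, Hoxa2 from -0.56 to -0.31 and Hoxa5 from -1.77 to -1.24 in Otx2-low neurons. The causes were not tested. Keeping the mixed and low-depth clusters was an alternative chosen after seeing the data. Otx2-low groups were left out of the run without integration, and Otx2-low progenitors could not be formed at doubled resolutions.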

Other observations

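Members were also found outside the groups compared above. In Otx2-high neurons, whose clusters differ widely in member level, Hoxb2 stood at 14.8 CPM in the control and 22.6 CPM in the mutant library (log2 ratio 0.61, 0.21 to 1.03), Hoxb4 at 28.0 and 14.6 CPM (log2 ratio -0.94, -1.30 to -0.58) and Hoxa5 at 20.6 and 3.64 CPM (log2 ratio -2.50, -3.11 to -1.92). Hoxa4 and Hoxb5 had log2 ratios of -2.08 and -2.95 in these neurons, and Hoxb6 had 40 UMIs in the control and none in the mutant library, at least 27.0-fold lower with the mutant level set at 3 UMIs. In the roof plate and choroid plexus-like progenitors, 45 and 79 cells led by Ttr, Colec12 and Trpm3, the members summed to 123 and 59.7 CPM (log2 ratio -1.04, -1.55 to -0.53).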
